A study of Mus musculus with 4 samples.

Results

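Homologous chromosomes find each other in meiosis by strand invasion, in which the single-stranded DNA tail of a double-strand break enters the intact duplex of the homologue. The tail is first coated by the RPA trimer, of which Rpa1 encodes the large subunit. BRCA2 then brings the recombinase DMC1 onto the tail, HSF2BP ties BRCA2 to meiotic recombination sites, SPATA22 acts with MEIOB on RPA-coated DNA, and the PSMC3IP (HOP2) and MND1 pair stimulates the invasion step itself. RAD51AP2 is a recombinase-binding protein of meiotic cells. These 8 genes, Dmc1, Psmc3ip, Mnd1, Brca2, Hsf2bp, Spata22, Rpa1 and Rad51ap2, were taken by name from the 23980 genes of the expression table, and each had a value in all 4 libraries, so that no member was lost to a filter.

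The libraries were made from polyA(+) RNA of leptotene/zygotene (L/Z) spermatocytes, the cells in which strand invasion takes place, isolated by FACS at an age of 3 to 4 weeks. All animals were F1 hybrids of C57BL6/J and MSM/Ms, obtained by crossing heterozygotes of one strain background with heterozygotes of the other. The controls were 1 Dnmt3L heterozygote and 1 Pld6 WT library, and the mutants were 1 Pld6 KO library, from mice without the mitochondrial protein that takes part in making piRNAs, and 1 Dnmt3L KO library, from mice without the cofactor of de novo DNA methylation. The heterozygote still carries 1 mutant allele, how many animals were pooled per library was not given in the sources used here, and line, genotype and sort differ together between the controls. Neither mutant has a replicate. Depth, as fragments in genes, went from 30439943 for Pld6 KO to 63875934 for the heterozygote. Pld6 was at 14 fragments in Pld6 KO and at 592 or more in the other libraries, and Dnmt3l was at 0 fragments in Dnmt3L KO and at 20 to 101 in the others.

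The libraries differed in the cells they held. The sum over 16 Sertoli cell genes was 10496 FPKM (fragments scaled to transcript length and to library depth) in the heterozygote, 399 in Pld6 WT, 944 in Pld6 KO and 13602 in Dnmt3L KO. None of these 16 genes was at 0 in any library. The sum over 16 spermatid genes was 7407, 221, 18.3 and 35.4 FPKM in the same order. That over 16 pachytene genes was 1534, 1149, 435 and 350 FPKM, but their median was 38.3, 28.2, 1.71 and 1.26 FPKM. A few of the pachytene genes thus made up most of what was left of the sum in each mutant. In Pld6 KO 2 of the spermatid and 1 of the pachytene genes were at 0. Summed levels went from 775 to 1085 FPKM over 14 spermatogonial genes, 45.4 to 452 over 9 Leydig cell genes, 30.8 to 181 over 11 macrophage genes and 157 to 668 over 11 peritubular and vascular genes, the last 3 being lowest in Pld6 WT, and reached 848 over 8 erythroid genes in the heterozygote. Of 20 L/Z markers 19 were listed, none at 0, with a median of 95.2, 206, 114 and 67.9 FPKM. In such bulk RNA, fewer L/Z cells and less RNA per L/Z cell cannot be told apart. Transcript length moved with the libraries too: in the heterozygote against Pld6 WT, expressed genes with a longest transcript under 2 kb had a median log2 difference of 0.39 and those of 4 kb and over one of -0.27, whereas in Dnmt3L KO against the heterozygote the medians were -0.32 and 0.37. The part of cell content and of length in the results was not tested. Values relative to the L/Z markers are therefore given for each member. Values relative to the length class are given for Psmc3ip, Mnd1, Brca2 and Rpa1 and for the count of members in Dnmt3L KO.

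All 8 promoters (250 bases before to 50 after the RefSeq start, GRCm38.p6, which has the coordinates of mm10) were rich in CpG, the dinucleotide that DNA methylation acts on. They held 12 to 33 CpGs in 300 bases, against a median of 7 over 32851 mouse promoters. The E2F motif TTCCCGC, searched on both strands, was in 4 of 8, Brca2, Hsf2bp, Spata22 and Rad51ap2, and in 4.60% of all promoters, or in 9.72% of the 13006 with at least 12 CpGs. These 4 promoters are shown because they hold the motif. The capitals mark the motif or its reverse complement, which overlapped no other motif searched. The windows are chr5:150522371-150522670 on the plus strand for Brca2, chr17:32034459-32034758 on the minus strand for Hsf2bp, chr11:73329491-73329790 on the plus strand for Spata22 and chr12:11455805-11456104 on the plus strand for Rad51ap2. Those of Brca2, Hsf2bp and Spata22 lie wholly inside the gene positions given below, which can start at another transcript.
Brca2: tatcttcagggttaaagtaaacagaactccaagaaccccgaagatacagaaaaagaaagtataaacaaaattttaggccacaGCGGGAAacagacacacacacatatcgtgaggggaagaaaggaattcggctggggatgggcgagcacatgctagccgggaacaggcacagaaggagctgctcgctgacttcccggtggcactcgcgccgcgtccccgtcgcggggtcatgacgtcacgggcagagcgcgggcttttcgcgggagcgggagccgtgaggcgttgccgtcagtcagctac
Hsf2bp: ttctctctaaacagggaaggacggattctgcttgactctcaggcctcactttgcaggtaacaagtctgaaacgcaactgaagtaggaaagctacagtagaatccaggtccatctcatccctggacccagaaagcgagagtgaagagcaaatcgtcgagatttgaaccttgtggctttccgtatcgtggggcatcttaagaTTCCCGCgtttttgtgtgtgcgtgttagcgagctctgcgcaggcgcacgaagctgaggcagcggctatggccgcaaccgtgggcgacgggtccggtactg
Spata22: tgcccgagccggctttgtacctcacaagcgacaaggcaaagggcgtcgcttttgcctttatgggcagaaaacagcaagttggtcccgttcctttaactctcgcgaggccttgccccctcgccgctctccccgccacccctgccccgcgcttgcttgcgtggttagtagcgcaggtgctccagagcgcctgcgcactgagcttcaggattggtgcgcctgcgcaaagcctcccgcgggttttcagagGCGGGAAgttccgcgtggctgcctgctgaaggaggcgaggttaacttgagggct
Rad51ap2: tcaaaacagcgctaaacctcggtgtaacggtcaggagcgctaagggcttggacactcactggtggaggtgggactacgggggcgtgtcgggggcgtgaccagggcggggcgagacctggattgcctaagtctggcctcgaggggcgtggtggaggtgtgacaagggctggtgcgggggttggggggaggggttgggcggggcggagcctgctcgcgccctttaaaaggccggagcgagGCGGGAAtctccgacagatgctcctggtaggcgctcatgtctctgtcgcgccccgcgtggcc
A match is a description of the letters and not a site of binding. The other motifs searched on both strands are given with their share of all promoters and, after it, of those with at least 12 CpGs. CNCCTCAG, which STRA8 and MEIOSIN are known to bind, was in 0 of 8 (7.94% and 9.41%), and the GC box GGGCGG was in 4 of 8, between the share of all promoters and that of CpG-rich ones (35.7% and 73.1%). CCAAT was in 3 of 8 (37.4% and 35.5%), the MYB motif TAACNG in 2 of 8 (23.3% and 16.9%), the cyclic AMP response element TGACGTCA in Brca2 alone (1.79% and 3.50%) and the E-box CACGTG in Rpa1 alone (7.15% and 11.1%).

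To ask whether the strand invasion genes changed in the mutants, each member's FPKM was set beside both controls. The lowest level of 7 of 8 members was in Dnmt3L KO, as for 23.5% of the 14416 genes with a mean FPKM of at least 1, and the highest level of 6 of 8 was in Pld6 WT, as for 22.3%. For 4 of 8 members, Psmc3ip, Mnd1, Hsf2bp and Rpa1, both mutants were below both controls, which held for 20.7% of these genes. For Hsf2bp and Rpa1 the 95% counting intervals of Pld6 KO and the heterozygote overlapped. A gene was counted as lower or higher where its FPKM + 1 was more than 2-fold below or above that of both controls. By this rule 0 of 8 members were lower in Pld6 KO, where 5.41% of all genes were (8.57% of those with a mean FPKM of at least 1), and 2 of 8, Hsf2bp and Psmc3ip, were lower in Dnmt3L KO, where 5.78% of all genes were (9.16%). No member was higher in either mutant. The count in Dnmt3L KO rests on the reference: it was 6 of 8 against Pld6 WT alone (8.75% of all genes were lower), 2 of 8 against the heterozygote alone (8.22%), 0 of 8 after scaling to the L/Z markers (3.35%) and 1 of 8 with the median of each transcript length class subtracted (4.98% of 22681 genes), an alternative added after the values were seen. In Pld6 KO 1 of 8, Spata22, was lower against Pld6 WT alone (6.46%), and 1 of 8, Brca2, was higher against the heterozygote alone (5.55%). Over the members, the median log2 difference from the mean of both controls came to -0.48 for Pld6 KO and -1.17 for Dnmt3L KO, beside -0.05 and -0.02 over the 14416 genes and -0.46 and -1.07 over the 19 L/Z markers, which lay close to the members. Both mutants are set against the same controls here, so the values of the mutants are not independent of each other.

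**Figure D1:**
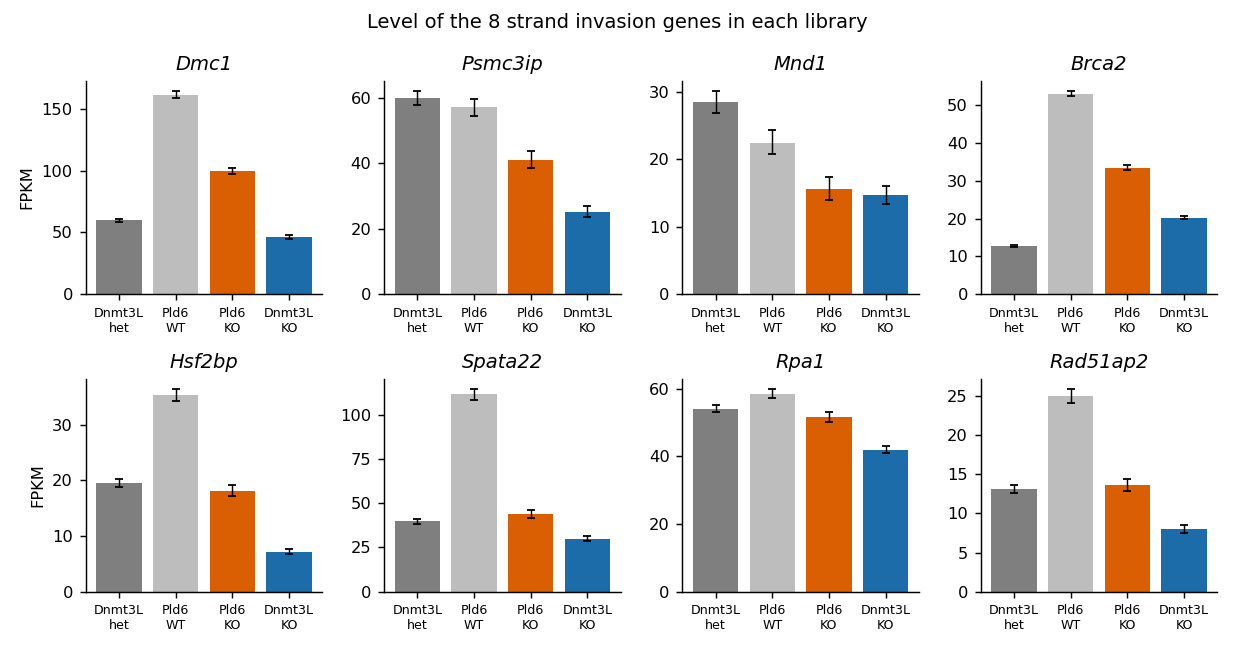
FPKM of each member in the 4 libraries, with a 95% Poisson interval for counting error as the error bar. Psmc3ip, Mnd1, Hsf2bp and Rpa1 are lower in both mutants than in both controls, Dmc1, Spata22 and Brca2 are over 2-fold higher in Pld6 WT than in the Dnmt3L heterozygote, and Hsf2bp is lowest in Dnmt3L KO at 7.17 FPKM.

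In FPKM, which takes account of length, Dmc1 was the highest member in each library, level with Psmc3ip in the heterozygote, where both were at 59.8 FPKM. The order below it changed: the lowest member was Brca2 in the heterozygote, Mnd1 in Pld6 WT, Rad51ap2 in Pld6 KO and Hsf2bp in Dnmt3L KO. In each library the 95% counting intervals of the lowest member and the next overlapped, which does not show that their levels were equal. Rpa1 was among the 3 highest members in each library.

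Members rested on 331 to 23243 fragments per library, which gives counting errors of 1.29% to 10.9% to either side (95% Poisson interval, for counting error only). The spread between animals of one mutant is not known. With 1 library per mutant, the edgeR test below did not call even Pld6 in Pld6 KO, at 14 fragments there and 1643 and 1197 in the controls. It therefore cannot show that members with smaller differences were unchanged. In edgeR's quasi-likelihood test, with both controls as the measure of spread, 0 of 8 members and 0 of 18657 genes (0%) reached an adjusted p of 0.05 for either mutant. Before adjustment, at p under 0.05, Pld6 KO had 102 genes higher and 1383 lower, with 0 members, and Dnmt3L KO had 203 higher and 1440 lower, with 1 member, Hsf2bp. DESeq2 called 15 higher and 957 lower genes in Pld6 KO and 17 and 919 in Dnmt3L KO, of 17801 tested, with 0 members in each. The lower genes were 5.38% and 5.16% of those tested, so a count of 0 of 8 is not a result about the members. With both mutants against both controls, edgeR again called 0 of 17686 genes (0%) and 0 members, with 128 genes higher and 1548 lower before adjustment. In that comparison DESeq2 called 37 higher and 1220 lower genes (6.29% of 19384 tested were lower) and 0 members.

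Dmc1 (chr15:79561497-79605159, minus strand, 14 exons), the meiosis-specific recombinase, was at 59.8 FPKM in the Dnmt3L heterozygote, 162 in Pld6 WT, 99.6 in Pld6 KO and 46.5 in Dnmt3L KO. Pld6 KO lay between the controls and Dnmt3L KO 1.29-fold below the lower one, while the controls themselves were 2.71-fold apart. Relative to the L/Z markers Dmc1 was at 75.6%, 114.7%, 114.3% and 87.1% in the same order, with both mutants between the controls. Pld6 KO had a log2 difference of -0.15 from both controls and Dnmt3L KO one of -1.24, and edgeR gave an adjusted p of 1 and 0.815.

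Genes whose profile over the 4 libraries was most like that of Dmc1 were 1700001L05Rik, Bub1, Ccdc36, Kif24 and Plk5, of 10611 genes with a mean FPKM of at least 5. Their root mean square difference from Dmc1 in centred log2(FPKM + 1) was 0.03 to 0.07 over 4 libraries. Bub1, a spindle checkpoint kinase, was at 64.5, 162, 107 and 48.1 FPKM, close to the level of Dmc1 in each library. Ccdc36 encodes IHO1, which is needed for the breaks on which DMC1 acts, and is also one of the 19 L/Z markers. Of the other members, Spata22 ranked 133 and Rad51ap2 139 in likeness to Dmc1, Brca2 444, Hsf2bp 544, Rpa1 2555, Psmc3ip 2740 and Mnd1 5007.

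The cofactors of the recombinases had another order. Psmc3ip (chr11:101092141-101095435, minus strand, 8 exons) was at 59.8 FPKM in the heterozygote, 57.0 in Pld6 WT, 41.0 in Pld6 KO and 25.1 in Dnmt3L KO, so that both mutants were below both controls. The controls were at 58.4 ± 1.96 FPKM (SD, n = 2), and Dnmt3L KO was 2.27-fold below the lower of them. Pld6 KO differed by -0.50 (log2) and Dnmt3L KO by -1.19, with an adjusted p of 1 and 0.780 by edgeR. With the median of its transcript length class subtracted, the difference of Psmc3ip in Dnmt3L KO was -0.84 and it was no longer more than 2-fold below both controls. Relative to the L/Z markers Psmc3ip was at 75.5% in the heterozygote, 40.4% in Pld6 WT and 47.1% in each mutant, between its controls. Mnd1 (chr3:84087933-84155798, minus strand, 8 exons), its partner in the HOP2-MND1 dimer, was at 28.5, 22.5, 15.5 and 14.7 FPKM, with both mutants again below both controls and close to each other. Their log2 differences from the controls were -0.68 and -0.76. With the median of the length class of Mnd1 subtracted they were -0.22 and -0.40. Relative to the L/Z markers Mnd1 was at 36.0%, 15.9%, 17.8% and 27.6% in the same order of libraries, with both mutants between the controls. Psmc3ip and Mnd1 were the only members that were highest in the heterozygote in FPKM. That trait rests on the length class, which is under 2 kb for both. With its median subtracted, the heterozygote was below Pld6 WT, by a log2 difference of -0.33 for Psmc3ip and -0.06 for Mnd1. On that scale Rpa1, of the class of 4 kb and over, was at 0.15. Within a library Psmc3ip stood at 1.71 to 2.64 times Mnd1. Relative to Dmc1, in contrast, Psmc3ip was at 0.999 in the heterozygote, 0.352 in Pld6 WT, 0.412 in Pld6 KO and 0.540 in Dnmt3L KO. Dmc1 is of another length class, 2 to 4 kb, and these ratios were not adjusted for length. Psmc3ip overlaps its neighbour Mlx on the other strand over 385 bases. The kit keeps the strand, but whether the counting used it was not given in the sources used here.

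Brca2 (chr5:150522297-150570147, plus strand, 27 exons), the loader of the recombinase, was at 12.7 FPKM in the heterozygote, 53.1 in Pld6 WT, 33.5 in Pld6 KO and 20.3 in Dnmt3L KO. Its controls were 4.18-fold apart and enclosed both mutants, so that the direction of its change depends on the control. Against the control of its own line, Pld6 KO was at -0.65 (log2), whereas Dnmt3L KO was at 0.63. It was the only member that was lowest in the heterozygote and the only one that was higher in Dnmt3L KO than in the heterozygote. Its longest transcript, of 10724 bases, is also the longest among the members. With the median of the class of 4 kb and over subtracted, the heterozygote was still 1.71 below Pld6 WT on the log2 scale (-1.71), and Dnmt3L KO was 0.26 above the heterozygote. Relative to the geometric mean of the L/Z markers Brca2 was at 37.6% in Pld6 WT, 38.4% in Pld6 KO and 38.0% in Dnmt3L KO, but at 16.0% in the heterozygote. Palb2, which holds BRCA2 at breaks, was at 10.5, 18.5, 15.7 and 9.06 FPKM, and the ratio of Brca2 to Palb2 was 1.21 in the heterozygote and 2.13 to 2.87 in the other libraries.

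Hsf2bp (chr17:31944769-32034895, minus strand, 9 exons), which encodes the BRCA2-binding protein of meiosis, was the member with the largest difference in Dnmt3L KO. It was at 19.5 FPKM in the heterozygote, 35.3 in Pld6 WT, 18.2 in Pld6 KO and 7.17 in Dnmt3L KO. Pld6 KO lay just below the heterozygote, and Dnmt3L KO 2.72-fold below it. In Dnmt3L KO edgeR gave a log2 change of -1.96 ± 0.77 (SE), with an unadjusted p of 0.0439 and an adjusted p of 0.539, and the adjusted p was 0.233 to 0.555 over the alternatives run for that comparison. With both mutants against both controls the log2 change was -1.16 ± 0.61 (SE) with an adjusted p of 0.805. When the mouse line was added as a block in edgeR, 131 of 17686 genes were higher (0.741%) and 1058 lower (5.98%). Hsf2bp was the only member among the lower genes, with a log2 change of -1.23 and an adjusted p of 0.0382, and 0 members were higher. Without the block the adjusted p of Hsf2bp in that comparison was 0.520 or above under the other alternatives. The block leaves 1 residual degree of freedom, and whether same-line libraries share litter or day was not given in the sources used here.

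The partner that HSF2BP binds, 4930432K21Rik (also named Brme1), was at 26.3 FPKM in the heterozygote, 37.5 in Pld6 WT, 21.2 in Pld6 KO and 8.54 in Dnmt3L KO, which is the same order as that of Hsf2bp. It was 3.08-fold below the lower control in Dnmt3L KO, and of 37 other genes of the pathway it was the only one more than 2-fold below both controls in a mutant. The ratio of Hsf2bp to 4930432K21Rik was 0.741, 0.940, 0.857 and 0.839, a range of 1.27-fold. The ratio of Hsf2bp to Brca2 went over 4.34-fold, from 1.54 in the heterozygote through 0.664 in Pld6 WT and 0.543 in Pld6 KO to 0.354 in Dnmt3L KO. Relative to the L/Z markers Hsf2bp was at 24.6%, 25.0% and 20.8% in the heterozygote, Pld6 WT and Pld6 KO and at 13.4% in Dnmt3L KO. Its partner was at 33.2%, 26.6%, 24.3% and 16.0% in the same order, with a log2 difference from both controls in Dnmt3L KO of -0.86 on that scale, where it was -1.79 unscaled. Relative to the L/Z markers, Hsf2bp and 4930432K21Rik stayed below the lower control in Dnmt3L KO, by less than 2-fold. Psmc3ip lay between the controls on that scale. Hsf2bp overlaps Rrp1b on the other strand over 250 bases.

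**Figure D2:**
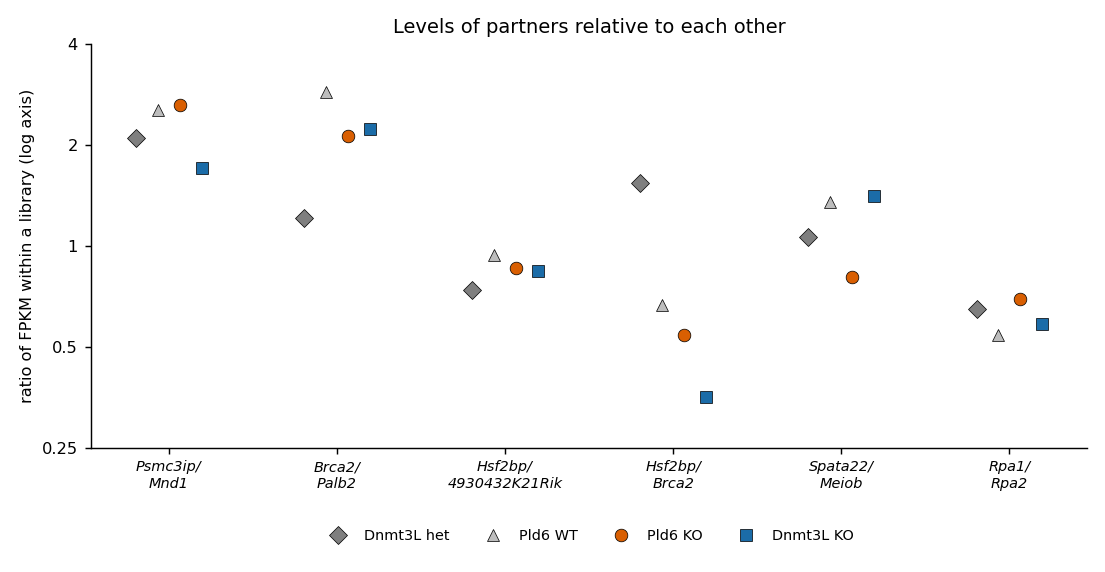
Ratio of FPKM of members and their partners within each library, on a log axis, with one symbol per library. The ratio of Hsf2bp to 4930432K21Rik spans 1.27-fold over the 4 libraries. That of Hsf2bp to Brca2 spans 4.34-fold, with the heterozygote highest and Dnmt3L KO lowest.

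Of the genes that act on RPA-coated DNA, Spata22 (chr11:73326560-73346592, plus strand, 9 exons) was at 39.9 FPKM in the heterozygote, 111 in Pld6 WT, 44.0 in Pld6 KO and 30.0 in Dnmt3L KO. Pld6 WT stood apart, and the other libraries lay within 1.47-fold of each other. Pld6 KO was at 39.4% of Pld6 WT, the largest drop of any member within the Pld6 line, but above the heterozygote. Meiob, whose protein binds SPATA22, was at 37.5, 82.7, 54.5 and 21.3 FPKM, and the ratio of Spata22 to Meiob was lowest in Pld6 KO at 0.806 and 1.06 to 1.41 elsewhere. Relative to the L/Z markers Spata22 was at 50.3%, 79.0%, 50.4% and 56.2% in the heterozygote, Pld6 WT, Pld6 KO and Dnmt3L KO. It overlaps a longer gene model on the same strand, Gm49340, that was not analysed here.

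Rpa1 (chr11:75300259-75348454, minus strand, 17 exons), which is used in replication and repair in all cells, varied least in FPKM. It was at 54.0 FPKM in the heterozygote, 58.5 in Pld6 WT, 51.6 in Pld6 KO and 41.9 in Dnmt3L KO. Both mutants were below both controls, by a log2 difference of -0.12 in Pld6 KO and -0.42 in Dnmt3L KO from their mean. With the median of its length class, 4 kb and over, subtracted, these differences were larger, at -0.31 and -0.56. Its level per L/Z marker went the other way in Dnmt3L KO, at 68.2%, 41.4%, 59.3% and 78.7%. Rpa2 was at 83.6, 108, 74.4 and 71.7 FPKM and Rpa3 at 44.6, 32.7, 25.1 and 40.9 FPKM, so that Dnmt3L KO lay between the controls for Rpa3 and below both for Rpa2. The ratio of Rpa1 to Rpa2 stayed within 0.544 to 0.694.

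Rad51ap2 (chr12:11456023-11463153, plus strand, 3 exons) was at 13.2 FPKM in the heterozygote, 25.0 in Pld6 WT, 13.6 in Pld6 KO and 8.01 in Dnmt3L KO. Pld6 KO was level with the heterozygote and Dnmt3L KO below both controls, by a log2 difference of -1.16 from their mean. It kept the narrowest range of any member relative to the L/Z markers, at 16.6%, 17.7%, 15.6% and 15.0%.

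Since the controls differed from each other, each mutant was also set against the control of its own line. In these contrasts, which share no library, all 8 members were lower in Pld6 KO than in Pld6 WT (49.2% of the 14416 genes were), and 7 of 8 were lower in Dnmt3L KO than in the heterozygote (45.2%), and 7 of 8 were lower in both (31.0%). Within the Pld6 line the log2 differences went from -0.18 for Rpa1 to -1.32 for Spata22, with -0.70 for Dmc1, -0.47 for Psmc3ip, -0.51 for Mnd1, -0.92 for Hsf2bp and -0.83 for Rad51ap2. Within the Dnmt3L line Hsf2bp at -1.33, Psmc3ip at -1.22 and Mnd1 at -0.91 differed most, followed by Rad51ap2 at -0.65, Spata22 at -0.40, and Dmc1 and Rpa1 at -0.36 each. The L/Z markers moved in the same contrasts, with 18 of 19 lower in Pld6 KO (median log2 difference -0.68) and 17 of 19 in Dnmt3L KO (-0.52), next to medians of -0.67 and -0.53 over the members. Between the controls the members went from -1.98 for Brca2 to 0.33 for Mnd1.

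**Figure D3:**
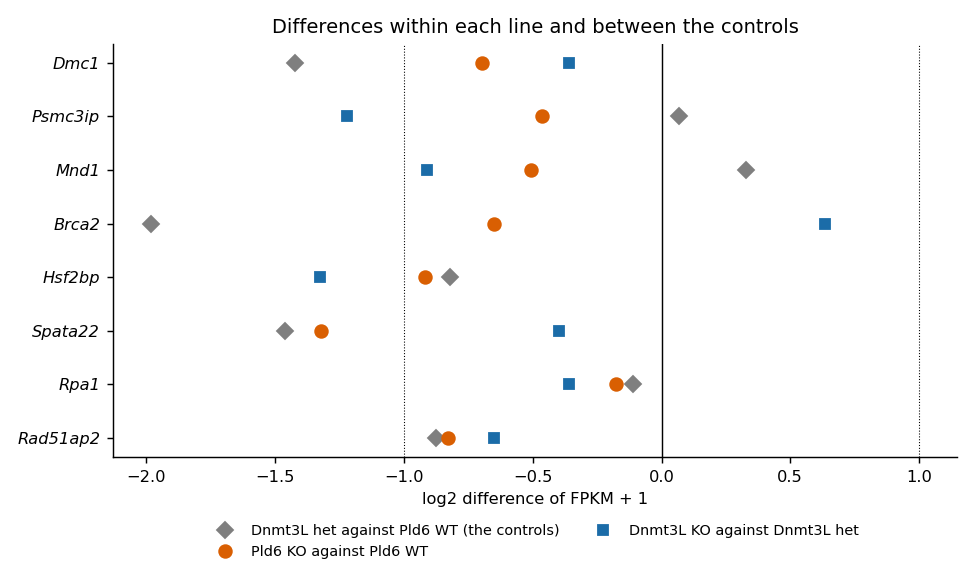
log2 difference of FPKM + 1 for each member in Pld6 KO against Pld6 WT (circles), in Dnmt3L KO against the Dnmt3L heterozygote (squares) and between the controls (diamonds), with dotted lines at 2-fold. All circles lie below 0, the square of Brca2 alone lies above 0 at 0.63, and the controls differ by up to -1.98.

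Relative to the L/Z markers of the same library, some members were lower and others higher than the control in each line. Within the Pld6 line Spata22 was at -0.65 (log2), Hsf2bp at -0.26 and Rad51ap2 at -0.18, Dmc1 and Brca2 were at -0.01 and 0.03, and Mnd1, Psmc3ip and Rpa1 were at 0.16, 0.22 and 0.52. Within the Dnmt3L line Hsf2bp was at -0.87, Psmc3ip at -0.68, Mnd1 at -0.39 and Rad51ap2 at -0.15, while Spata22, Rpa1, Dmc1 and Brca2 were at 0.16, 0.20, 0.20 and 1.24. These differences have no replicate and no test.

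**Figure D4:**
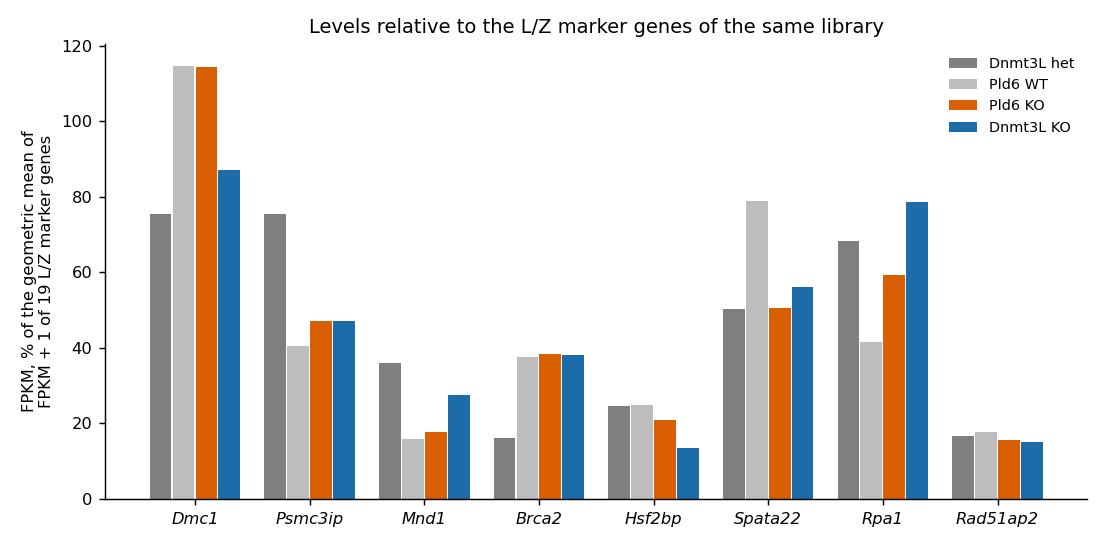
FPKM of each member as a percentage of the geometric mean of FPKM + 1 of 19 L/Z marker genes in the same library. Hsf2bp is lowest in Dnmt3L KO at 13.4%, Brca2 is lowest in the heterozygote at 16.0%, and Rad51ap2 stays between 15.0% and 17.7%.

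The rest of the pathway was described by lists of 37 genes chosen from general knowledge. By edgeR 0 of 37 reached an adjusted p of 0.05 for either mutant, as did 0 of 18657 genes. In Pld6 KO 0 of 37 were more than 2-fold beyond both controls, where 5.41% of all genes were lower and 1.04% higher. In Dnmt3L KO 1 of 37, 4930432K21Rik, was lower, where 5.78% of all genes were lower and 2.14% higher. Both mutants were below both controls for 6 of 37 (16.2%), with a median log2 difference from the controls of 0.11 for Pld6 KO and -0.41 for Dnmt3L KO. By list, these medians were -0.36 and -0.62 over the 5 direct partners, 0.07 and -0.34 over the 8 genes of the list with XRCC2, XRCC3 and the Shu complex, 0.23 and -0.42 over the 11 genes of the list with BRCA1 and the recombination mediators, 0.13 and -0.21 over the 7 end resection genes, and 0.07 and -0.69 over the 6 MCM-like and helicase factors. Against the control of their own line, 30 of 37 were lower in Pld6 KO, where 49.2% of the 14416 genes were. In Dnmt3L KO 16 of 37 were lower, near the share of 45.2% over these genes.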

How the data were processed

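PolyA(+) RNA of FACS-purified L/Z spermatocytes was sequenced by the authors as single 50 bp reads from a stranded kit. Per the labels, TopHat and Cuffdiff were used with mm10, in versions not given in the sources used here. The deposited table holds, for 23980 genes and 4 libraries, an estimated count of fragments per gene that was not normalised. It also holds FPKM, which the authors' tool scaled to gene length and library depth. Of its values 31 were marked as failed, none of them of a member.

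Differences were computed as log2(FPKM + 1), a scale that understates the change of low genes. The Dnmt3L heterozygote (control replicate 1) and Pld6 WT (control replicate 2) formed the control group, as the labels give no other, and each mutant was 1 library. Fragments rounded to whole numbers were tested with edgeR 4.0.16 (quasi-likelihood, TMM, filterByExpr, Benjamini-Hochberg adjusted p of 0.05), with 1 residual degree of freedom for each mutant against both controls and 2 for both mutants against both controls. DESeq2 1.42.0 was the alternative. The fits were tried on simulated data with a lower dispersion than these data had (0.347 and 0.369). That trial does not show how often a change would be found here. P-values measure only the spread between these libraries. Libraries of the same line deviated together (Pearson r = 0.53 across 14416 genes between the line difference in the controls and that in the mutants, genes not being independent), but 2 lines with 1 library per genotype cannot show a pairing. Reads carried no molecular identifiers.

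Named genes are the 8 members, their 5 direct partners, other genes of the pathway more than 2-fold beyond both controls, Pld6 and Dnmt3l, and the 5 genes most like Dmc1. A gene of the pathway is not reported here. The members, the pathway and marker lists and the motifs were chosen with earlier results of these data known. Gene positions and promoters are those of RefSeq (GRCm38.p6), transcript lengths and overlaps those of GENCODE M21. All 8 members had a promoter, and gene and promoter starts can come from different transcripts.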

Additional observations from a re-analysis of the deposited data

Results flagged for a closer look

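Brca2 moved in opposite directions in the lines: it was -0.65 (log2) in Pld6 KO against Pld6 WT and 0.63 in Dnmt3L KO against the heterozygote, a difference of 1.28. The median of the 37 other pathway genes was -0.22 in the Pld6 line and 0.03 in the Dnmt3L line, 0.26 apart. By list, the medians were 0.44 apart for the list with XRCC2, XRCC3 and the Shu complex (-0.34 and 0.09), 0.28 apart for the list with BRCA1 and the mediators (-0.19 and 0.09) and 0.33 apart for end resection (-0.11 and 0.22). These differences between lines were not tested, since each line has 1 library per genotype.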

How the results depend on the processing

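No member was more than 2-fold beyond both controls in Pld6 KO; without control replicate 1 or 2 the count was 1 (Spata22, lower, where 6.46% of all genes were, or Brca2, higher, where 5.55% were), a range of 1 to 1. In Dnmt3L KO the count of 2 was 2 to 6 without one control (6 without the heterozygote, where 8.75% of all genes were lower, and 2 without Pld6 WT, where 8.22% were, against 5.78% with both). It was 0 after scaling to the L/Z markers (3.35%) and 1 with transcript length class medians subtracted (4.98%), an alternative added after the values were seen. No paired value could be had for these counts, which come from no test. The changes of single members were moved beyond the spread of the controls by L/Z scaling in 9 of 16 values and by length in 6 of 16. Counted over all 16 values, moved or not, the sign changed in 5 with L/Z scaling and in 4 without control replicate 2. It changed in 1 each without control replicate 1, with TMM factors and with length.

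In the fits, edgeR called 0 genes with TMM or RLE factors. DESeq2 called 972 of 17801 in Pld6 KO, 936 of 17801 in Dnmt3L KO and 1257 of 19384 in both mutants, none of them a member. The lower genes were 5.38%, 5.16% and 6.29% of those tested. Without the filter on low counts edgeR called 437, 429 and 377 of 20568, none of them a member, with 2.09%, 2.06% and 1.82% lower. At such shares a count of 0 of 8 does not show that the members were unchanged. With line as a replicate block both mutants against both controls gave 1189 (0.741% of 17686 genes higher and 5.98% lower), Hsf2bp included among the lower. The block changed the call of no other member. Leaving out a library gave 0 to 0 for both mutants against both controls. For a single mutant it leaves no residual degree of freedom and was not run. The causes were not tested. At these depths the counting error of a member was at most 10.9%.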
